A study of Homo sapiens with 12 samples.

Results

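The genes described here encode the proteins of the cytoplasmic ribosome. The rule that chose them reads the symbol and no measured value, though earlier results of these data were known when it was set. A row was taken when its symbol was RPL or RPS followed by a number, with or without a final A, X or L, or was RPLP0, RPLP1, RPLP2 or RPSA. This gave 80 of the 36762 gene rows of each count table, 48 of the large subunit and 32 of the small subunit. Among them are 4 paralogs, RPL3L, RPL10L, RPL39L and RPS27L, whose protein can stand in for that of the gene they resemble. All 80 symbols matched a single protein-coding gene of GENCODE release 29 on GRCh38, and the genes lie on 21 chromosomes. RPL6, a large subunit gene whose symbol fits the rule, is not among the rows and so enters no sum or count.

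The libraries come from UCLA1, an established human embryonic stem cell (hESC) line, and from iMeLC, incipient mesoderm-like cells that UCLA1 hESC form on the way to primordial germ cell-like cells. The genotypes are control (CTRL) and a knockout of the catalytic domain of TET1 (CDKO), an enzyme that oxidises 5-methylcytosine, and the comparison asks how losing that domain bears on expression at each stage. Each genotype has 3 libraries as hESC and 3 as iMeLC, which makes 4 groups. The CTRL lines are CTRL1101, CTRL1106 and CTRL1109 and the CDKO lines CDKO1102, CDKO1105 and CDKO1312, all labelled UCLA1, and the labels do not say how each line was derived. The hESC columns are headed WT and KO and numbered 1 to 3 with no line number. WT was read here as CTRL and KO as CDKO. The p-values measure the spread between these libraries only.

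Library totals were 12517593 to 18855099 counts in hESC and 52121702 to 109479071 counts in iMeLC, and the stages stand in separate tables, so stage cannot be told apart from table and depth. Counts of TET1 over the whole gene do not check a deletion of part of it: they were 325 to 380 CPM (counts scaled to a fixed library size) in CTRL hESC and 378 to 448 CPM with CDKO, a log2 difference of 0.25 ± 0.09 (SE; edgeR adjusted p = 0.209). In iMeLC they were 257 to 289 CPM with CTRL and 268 to 309 CPM with CDKO (0.09 ± 0.09, edgeR adjusted p = 0.577). The summed level of 8 pluripotency markers was 11334 to 12437 CPM in CTRL hESC, 12438 to 13521 CPM in CDKO hESC and 5407 to 6246 CPM over the iMeLC libraries. Primitive streak markers summed to 52.9 to 139 CPM in CTRL hESC against 117 to 676 CPM in CDKO hESC, where library 3 was the highest. In iMeLC they summed to 248 to 1270 CPM in the controls and 1485 to 1881 CPM in the CDKO libraries. Definitive endoderm markers, 8 genes, summed to 13.8 to 33.8 CPM in CTRL hESC, 17.9 to 190 CPM in CDKO hESC, 22.4 to 132 CPM in CTRL iMeLC and 144 to 321 CPM in CDKO iMeLC. The 12 fibroblast markers summed to 447 to 677, 533 to 679, 508 to 1013 and 783 to 1093 CPM in the same order. Between genotypes in iMeLC the fold change was positive for all 12 (median 0.85), and 0 passed by edgeR, 5 had an unadjusted p under 0.05 and DESeq2 called 3. Over all genes there 46.9% were positive, 0.345% passed by edgeR, 19.8% had an unadjusted p under 0.05 and DESeq2 called 1471. Of 11 tested between stages 9 were higher and 1 lower in CTRL by edgeR, where 29.5% of all genes passed as higher and 19.9% as lower. Between genotypes in hESC all 9 streak markers tested were positive (median 1.54). EdgeR called 1 of them, NODAL, 7 had an unadjusted p under 0.05 and DESeq2 called 3. Of 7 endoderm markers tested 6 were positive (median 2.13), with 0, 5 and 0 by these tests. All 8 pluripotency markers were positive (median 0.19), with 0, 4 and 2. Over all genes there 49.7% were positive, 1.31% passed by edgeR, 16.1% had an unadjusted p under 0.05 and DESeq2 called 626.

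A ribosome is built from a large and a small subunit, each made of folded ribosomal RNA and of proteins, most of which are present as a single copy. The large subunit joins amino acids and passes the growing chain through an exit tunnel, and the small subunit holds the messenger RNA and reads its codons. The messenger RNAs of ribosomal proteins typically begin with a C followed by a run of pyrimidines, the 5′ terminal oligopyrimidine (TOP) tract, through which the TOR kinase and LARP1 set their translation and stability together. Pluripotent cells are known for high transcription of ribosomal RNA and ribosome assembly genes.

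A run of C and T lay at or near the annotated start of most members. RefSeq start windows (GRCh38.p14, 10 bases before to 20 bases from the annotated start) were found for 54 members, 31 large and 23 small. The windows below are a choice from the members called lower in CDKO hESC, not the furthest apart in order, and of RPL27, the furthest apart between stages in CTRL. Those of RPS4X and the paralog RPL10L, which lack a long run, follow. Capitals mark the longest run made only of C and T.
RPL35: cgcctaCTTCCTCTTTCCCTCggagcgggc
RPLP2: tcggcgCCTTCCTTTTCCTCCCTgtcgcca
RPL37A: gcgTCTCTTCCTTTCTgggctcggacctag
RPL38: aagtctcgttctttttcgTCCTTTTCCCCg
RPS18: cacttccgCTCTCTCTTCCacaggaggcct
RPS7: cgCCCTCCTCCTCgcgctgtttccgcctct
RPS6: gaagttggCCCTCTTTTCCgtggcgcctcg
RPL27: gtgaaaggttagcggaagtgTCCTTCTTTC
RPS4X: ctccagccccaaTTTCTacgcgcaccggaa
RPL10L: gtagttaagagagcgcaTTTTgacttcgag

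These windows lie at chr9:124861938-124861967 on the minus strand for RPL35, chr11:809957-809986 on the plus strand for RPLP2, chr2:216498834-216498863 (plus) for RPL37A and chr17:74203668-74203697 (plus) for RPL38. They lie at chr6:33272065-33272094 (plus) for RPS18, chr2:3575250-3575279 (plus) for RPS7, chr9:19380217-19380246 (minus) for RPS6 and chr17:42998409-42998438 (plus) for RPL27. Those of RPS4X and RPL10L lie at chrX:72277229-72277258 and chr14:46651762-46651791, both on the minus strand. The longest run was 15 bases in RPL35, 17 in RPLP2 and 13 in RPL37A, but 5 in RPS4X and 4 in RPL10L. Some members with large hESC differences, not printed above, also had short runs. RPL12, called lower in CDKO hESC (log2 fold change -0.47), had 6, and RPS3A (-0.44, not called) had 7. A run of at least 8 C or T was present in 45 of 54 member windows (83.3%) and in 12.5% of the windows of all 22114 promoters in the table. On the opposite strand of the same windows it was present in 0 of 54 members and in 10.4% of all promoters. The letters CTTT within 5 bases of the start were found in 33 of 54 members (61.1%) and in 6.33% of all promoters, and on the opposite strand in 1.85% and 4.05%. The annotated start base was C in 43 of 54 members (79.6%) and in 15.2% of all promoters. A run was present in 26 of 31 large and 19 of 23 small subunit windows.

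Summed over the members, the ribosomal protein genes took a smaller share of the counts in CDKO hESC than in CTRL hESC, and a larger share in iMeLC than in hESC. The large subunit genes took 2.13, 2.18 and 2.19% of counts in the CTRL hESC libraries and 1.82, 1.84 and 1.89% in the CDKO hESC libraries. The small subunit genes took 1.08 to 1.16% in CTRL hESC and 0.944 to 1.02% in CDKO hESC, and the groups did not overlap for either subunit. The mean share of the large subunit in hESC was 2.17% ± 0.0318 for CTRL and 1.85% ± 0.0350 for CDKO, and in iMeLC 3.05% ± 0.151 and 2.88% ± 0.0462 (SD, n = 3 each). That of the small subunit was 1.13% ± 0.0472, 0.980% ± 0.0369, 1.67% ± 0.0486 and 1.63% ± 0.0275 in the same order. In iMeLC the groups overlapped for both subunits, with large subunit shares of 2.89 to 3.19% for CTRL against 2.84 to 2.93% for CDKO, and small subunit shares of 1.62 to 1.71% against 1.61 to 1.66%. The ratio of large to small subunit counts was, as hESC, 1.92 ± 0.0531 for CTRL and 1.89 ± 0.0369 for CDKO, and as iMeLC 1.83 ± 0.0556 for CTRL and 1.77 ± 0.00242 for CDKO. The 95% Wilson interval of any library's share was at most 0.00754 percentage points on either side, which covers counting error only. In these bulk samples fewer cells of a type and less RNA per cell cannot be told apart, and the part of the marker levels given above in any of these differences was not tested.

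**Figure D1:**
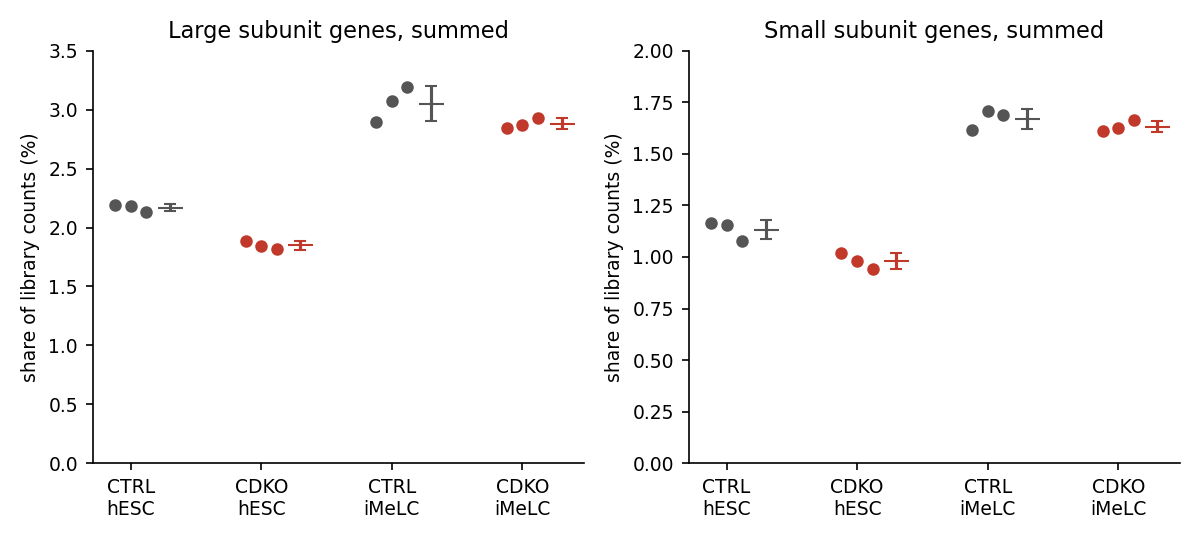
Share of each library's counts (%) taken by the 48 large subunit genes (left) and the 32 small subunit genes (right), by group. Points are libraries and the bar beside them is the group mean with its SD; CDKO hESC libraries lie below all CTRL hESC libraries (1.82 to 1.89% against 2.13 to 2.19% for the large subunit), and the iMeLC groups overlap.

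In hESC, 15 ribosomal protein genes were lower in CDKO than in CTRL and none was higher (0 also by DESeq2 and at an unadjusted p under 0.05). Of 48 large subunit genes, 10 passed the test as lower, and of 32 small subunit genes 5 did. Over all 17222 genes tested, 0.714% passed as lower, 0.598% as higher and 1.31% in either direction (edgeR quasi-likelihood test, Benjamini-Hochberg adjusted p under 0.05). The log2 fold change was negative for 45 of 48 large subunit genes, with a median of -0.27, and for 29 of 32 small subunit genes, with a median of -0.21, while the median of all genes tested was -0.00 and 50.3% of them were negative. Libraries did not overlap, with CDKO lower, for 33 large and 17 small subunit genes, against 10.9% of all genes tested. Unadjusted p was under 0.05 for 47 of 80 members, all lower, against 16.1% of all genes in either direction. The log2 fold changes of the 15 genes that passed ranged from -0.56 to -0.36.

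RPL35, a protein at the rim of the exit tunnel, had 89.1, 110 and 88.0 CPM in the CTRL hESC libraries against 57.7, 68.9 and 67.0 CPM in the CDKO hESC libraries. Its groups did not overlap, and the log2 fold change was -0.56 ± 0.11 (SE; edgeR adjusted p = 0.0383). RPLP2, an acidic protein of the stalk that recruits elongation factors, had 176, 198 and 162 CPM in CTRL against 113, 136 and 123 CPM in CDKO. The highest CDKO library of RPLP2 stayed under the lowest CTRL library, and its log2 fold change was -0.53 ± 0.10 (edgeR adjusted p = 0.0358). RPL37A, a small zinc-binding protein of the large subunit, had 216, 229 and 237 CPM in CTRL against 146, 167 and 161 CPM in CDKO. It had the smallest adjusted p of the members, with a log2 fold change of -0.52 ± 0.08 (edgeR adjusted p = 0.0168).

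RPL5 and RPL11 carry the 5S ribosomal RNA into the large subunit and, when free, bind MDM2, the inhibitor of p53. RPL5 had 142, 140 and 125 CPM in CTRL hESC against 89.3, 105 and 94.5 CPM in CDKO hESC, and fell by 0.49 ± 0.09 on the log2 scale (edgeR adjusted p = 0.0313). RPL11 had 185, 188 and 168 CPM in CTRL against 120, 151 and 124 CPM in CDKO, with groups apart, but did not pass the test (log2 fold change -0.45 ± 0.10, edgeR adjusted p = 0.0595). RPL38, a protein whose loss in mice alters patterning of the skeleton, had 69.5, 70.9 and 58.7 CPM in CTRL against 42.4, 49.7 and 47.8 CPM in CDKO (log2 fold change -0.51 ± 0.10, edgeR adjusted p = 0.0418). RPL12, a protein at the foot of the stalk, and RPL21, RPL23 and RPL28 also passed, with log2 fold changes of -0.47 to -0.39.

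Among small subunit genes, RPS18, a protein of the subunit's head, had 337, 322 and 282 CPM in CTRL hESC against 231, 234 and 221 CPM in CDKO hESC. Its log2 fold change was -0.46 ± 0.08 (edgeR adjusted p = 0.0326). RPS7 had 309, 318 and 275 CPM in CTRL against 223, 209 and 235 CPM in CDKO, with a log2 fold change of -0.43 ± 0.08 (edgeR adjusted p = 0.0390). RPS19, the gene most often mutated in Diamond-Blackfan anaemia, had 404, 399 and 379 CPM in CTRL against 302, 309 and 281 CPM in CDKO (log2 fold change -0.41 ± 0.07, edgeR adjusted p = 0.0315). RPS6, the substrate of the S6 kinases downstream of TOR, had 955, 946 and 877 CPM in CTRL against 727, 713 and 706 CPM in CDKO (log2 fold change -0.37 ± 0.07, edgeR adjusted p = 0.0383). RPS27A, which is made as a fusion with ubiquitin, had 308, 311 and 289 CPM in CTRL against 235, 242 and 231 CPM in CDKO (log2 fold change -0.36 ± 0.07, edgeR adjusted p = 0.0412). In all 5 genes every CDKO library lay below every CTRL library.

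**Figure D2:**
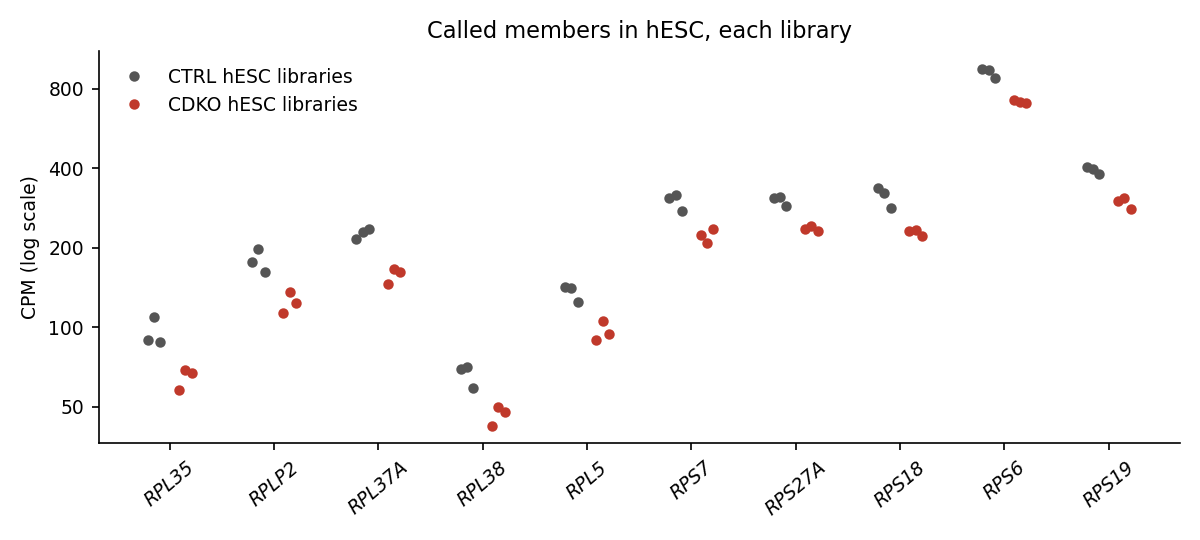
CPM (log axis) in each hESC library of the 5 large and 5 small subunit genes with the largest fold changes among those that passed the test. Points are libraries, 3 CTRL and 3 CDKO per gene; for each gene the CDKO libraries lie below the CTRL libraries, as for RPL5 (89.3 to 105 CPM against 125 to 142 CPM).

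By role, both 5S ribonucleoprotein genes and all 4 stalk genes had negative fold changes in hESC, with 1 and 2 that passed, and medians of -0.47 and -0.43. Of 9 genes around the exit tunnel 8 were negative and 1 passed. Over all genes tested 0.714% passed as lower and 50.3% had negative fold changes. Of 5 genes of the mRNA channel 4 were negative, and none is among those that passed. All 5 decoding and head genes were negative and 1 passed. The 6 other large subunit genes given a role were all negative and 2 passed. Of 7 other small subunit genes 5 were negative and 2 passed, and of 4 paralogs 3 were negative and 0 passed. RPLP0, the base of the stalk, had 1396, 1391 and 1300 CPM in CTRL against 1180, 1134 and 1142 CPM in CDKO (log2 fold change -0.24 ± 0.07, edgeR adjusted p = 0.139). RPL10, the last protein to join the subunit interface, had 486 ± 34.6 CPM in CTRL against 464 ± 36.6 CPM in CDKO (SD, n = 3), a difference smaller than the spread (log2 fold change -0.07 ± 0.09, edgeR adjusted p = 0.741). RPS4X, encoded on the X chromosome, had 929 ± 81.2 CPM in CTRL against 808 ± 61.2 CPM in CDKO, and the groups overlapped (log2 fold change -0.20 ± 0.09, edgeR adjusted p = 0.313). RPS27 had 322 ± 17.4 CPM in CTRL against 281 ± 24.7 CPM in CDKO, and RPL39, a protein of the exit tunnel, 8.83 ± 0.341 and 7.04 ± 1.27 CPM. Neither RPS27 nor RPL39 passed (edgeR adjusted p = 0.289 and 0.378).

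A positive fold change in hESC was found for 6 members, among them RPL22, RPL10L, RPL36A, RPS10 and RPS28, and none of the 6 passed. RPL22, which also binds viral and cellular RNA outside the ribosome, had 68.1, 64.9 and 69.1 CPM in CTRL against 73.3, 75.6 and 70.3 CPM in CDKO, so its libraries were apart in the opposite direction (log2 fold change 0.12 ± 0.07, edgeR adjusted p = 0.453). The paralogs RPL3L and RPL10L were near the floor, at 0.340 to 1.45 CPM and 0.207 to 0.984 CPM in CTRL hESC, and their fold changes carried SEs of 0.54 and 0.55. RPL39L had 30.3 ± 1.65 CPM in CTRL against 28.2 ± 1.17 CPM in CDKO, and RPS27L, a p53-induced paralog, 14.4 ± 2.84 and 13.2 ± 2.56 CPM.

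The number of genes that passed in hESC depended on single libraries, while most fold changes were negative in each fit. Without CTRL library 1, 1 member passed as lower, without CTRL library 2, 11, and without CTRL library 3, 27. Without CDKO library 1, 2 or 3 none passed by edgeR. The genes called in all numbered 102, 493 and 230 without CTRL libraries 1, 2 and 3, and 28, 5 and 41 without CDKO libraries 1, 2 and 3. In every one of these 6 fits 72 to 75 of the 80 log2 fold changes were negative, and the members' median was -0.28 to -0.22.

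**Figure D3:**
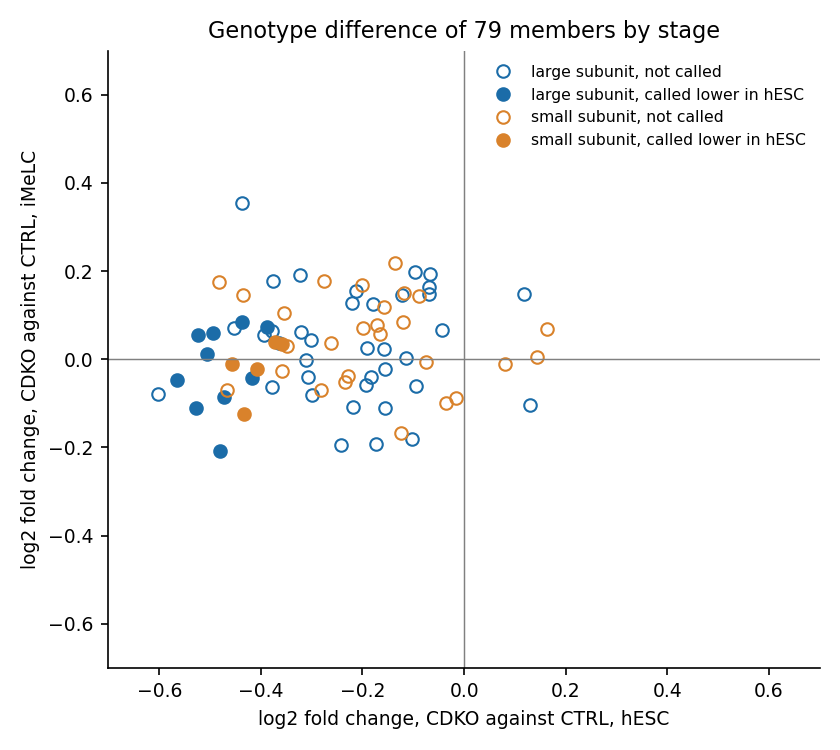
Log2 fold change of CDKO against CTRL in hESC (x) and in iMeLC (y) for 79 members; RPL10L, at 0.23 and 1.48, is off the plot. Each point is a gene, blue for the large and orange for the small subunit, filled where edgeR called it lower in hESC; most points lie left of 0 in hESC and on both sides of 0 in iMeLC.

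In iMeLC, 0 of the 80 members passed the test between CDKO and CTRL, against 0.345% of all 19999 genes tested (69 genes). Without the library of CTRL1101, 2646 of all genes and 1 large subunit member, which was higher, passed. Unadjusted p was under 0.05 for 3 large and 0 small subunit genes by edgeR, against 19.8% of all genes, and DESeq2 also called 0 members. The median log2 fold change was 0.03 for the large subunit and 0.04 for the small subunit, with 47 of 80 positive; with library totals in place of trimmed mean of M-values (TMM) scaling, 28 of 80 were positive, so no direction is given. Libraries did not overlap for 16 members (20% of them), against 26.1% of all genes. The smallest adjusted p of each subunit belonged to RPL30, with 259 ± 4.21 CPM in CTRL against 293 ± 3.62 CPM in CDKO (log2 fold change 0.18 ± 0.07, edgeR adjusted p = 0.216), and RPS12, with 439 ± 25.9 and 496 ± 6.23 CPM (0.18 ± 0.08, edgeR adjusted p = 0.257).

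RPL5, RPS19, RPS6 and RPL38, which fell in CDKO hESC, had overlapping groups in iMeLC. RPL5 had 1242, 1288 and 1383 CPM in CTRL iMeLC against 1424, 1347 and 1303 CPM in CDKO iMeLC (log2 fold change 0.06 ± 0.08, edgeR adjusted p = 0.720). RPS19 had 637, 595 and 626 CPM in CTRL against 583, 617 and 632 CPM in CDKO (-0.02 ± 0.08, edgeR adjusted p = 0.895), and RPS6 1290, 1261 and 1377 against 1351, 1327 and 1359 CPM. RPL38 had 353, 343 and 386 CPM in CTRL against 347, 350 and 395 CPM in CDKO. RPL10L, a retrogene paralog of RPL10 known from the testis, had 7.40, 1.15 and 2.57 CPM in CTRL iMeLC against 11.98, 11.65 and 7.39 CPM in CDKO iMeLC, and the lowest CDKO library lay just under the highest CTRL library (log2 fold change 1.48 ± 0.59, edgeR adjusted p = 0.231).

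Whether the genotype difference itself changed between the stages was tested as an interaction over all 12 libraries. No member passed by edgeR, and 0.0197% of the 20262 genes tested did. Unadjusted p was under 0.05 for 29 of 48 large and 19 of 32 small subunit genes by edgeR, against 11.2% of all genes, and DESeq2 called 12 large and 8 small subunit genes among 188 genes in all. The interaction was positive, that is, CDKO was lower relative to CTRL in hESC than in iMeLC, for 46 of 48 large subunit genes (median 0.35) and 26 of 32 small subunit genes (median 0.31). Of all genes tested 48.3% were positive and 51.7% negative (median -0.01). Abundant genes also leaned positive: of the 2253 with a mean of at least 100 CPM, 30.2% were negative (median 0.10), against 8 of the 80 members. The smallest adjusted p was 0.115 by edgeR, for RPL37A (0.62 ± 0.11) and RPL30 (0.59 ± 0.11). RPL5 had an interaction of 0.59 ± 0.12 (edgeR adjusted p = 0.177) and RPS12 of 0.70 ± 0.14 (edgeR adjusted p = 0.177). Without the iMeLC library of CTRL1101, edgeR called 14 members, all positive, and 439 of all genes; without any other single library it called 0 members.

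Between stages most members were higher in iMeLC, and the large subunit genes moved by very unequal amounts. In CTRL, 36 large subunit genes were higher and 3 lower, and 26 small subunit genes were higher and 0 lower by edgeR. Over all 20262 genes tested 29.5% passed as higher, 19.9% as lower and 49.4% in either direction. Abundant genes also lay higher: of the 2253 with a mean of at least 100 CPM, 1175 passed as higher and 404 as lower in CTRL (median log2 fold change 0.32), and 1290 and 419 in CDKO (median 0.40). Unadjusted p was under 0.05 for the same number of small subunit genes, 26, all higher (55.5% of all genes in either direction), and DESeq2 called 2 lower. The median log2 fold change was 0.77 for the large and 1.01 for the small subunit. With library totals 10 large and 4 small members were called lower and the medians were 0.48 and 0.71, and with upper-quartile scaling 12 and 6 were called lower and the medians were 0.40 and 0.64. In CDKO, 39 large subunit genes were higher and 0 lower, and 27 small subunit genes were higher and 2 lower, with medians of 1.06 and 1.38. With library totals 8 large and 5 small members were called lower (medians 0.67 and 0.99), and with upper-quartile scaling 9 and 5 (medians 0.59 and 0.91). In CDKO 32.1% of all genes passed as higher, 27.7% as lower and 59.8% in either direction. Unadjusted p was under 0.05 for 42 large subunit genes in CDKO (64.2% of all genes), and DESeq2 called 1 lower. Both stage comparisons describe differences between tables as well as stages.

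RPL27 lay at the top of the range. On the scale of the 12-library fit it had 41.9, 44.6 and 36.4 CPM in CTRL hESC against 995, 845 and 928 CPM in CTRL iMeLC, a log2 fold change of 4.49 ± 0.11 (SE; edgeR adjusted p = 1.42e-10). In CDKO it had 27.8, 34.2 and 31.6 CPM in hESC and 871, 882 and 953 CPM in iMeLC (4.85 ± 0.12). RPL5 followed, with 127, 125 and 111 CPM in CTRL hESC against 1396, 1436 and 1525 CPM in CTRL iMeLC (3.59 ± 0.09), and the other 3 of the top 5 in CTRL were RPL35 (3.49), RPLP2 (3.14) and RPL31 (2.98). Among small subunit genes RPS15A rose most in CTRL, from 27.6 to 32.7 CPM in the hESC libraries to 140 to 175 CPM in the iMeLC libraries (2.45 ± 0.10). RPS3A rose by 2.06 ± 0.09 in CTRL and by 2.68 ± 0.09 in CDKO on the log2 scale, and RPS13 (1.85) and RPS27L (1.76) also rose in CTRL. None of these groups overlapped.

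Other members stayed near 0 or lay lower. RPL41, which encodes one of the shortest human proteins, had 170, 166 and 158 CPM in CTRL hESC against 122, 134 and 139 CPM in CTRL iMeLC, and fell by 0.32 ± 0.08 on the log2 scale (edgeR adjusted p = 0.00604). RPL15 fell by 0.31 ± 0.09 in CTRL (edgeR adjusted p = 0.00956), and RPL3L, a paralog of muscle, fell from 0.303 to 1.28 CPM to 0.0117 to 0.244 CPM. In CDKO RPS28 fell by 0.22 ± 0.08 (edgeR adjusted p = 0.0356). RPL10 (0.10), RPS27 (0.09), RPL3 (0.02), RPL13A (0.04) and RPL7A (0.01) did not pass in CTRL. RPL10 and RPS27 turned negative in CTRL under upper-quartile scaling, at -0.27 and -0.28, where the median of all genes moved to -0.39 from -0.01.

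**Figure D4:**
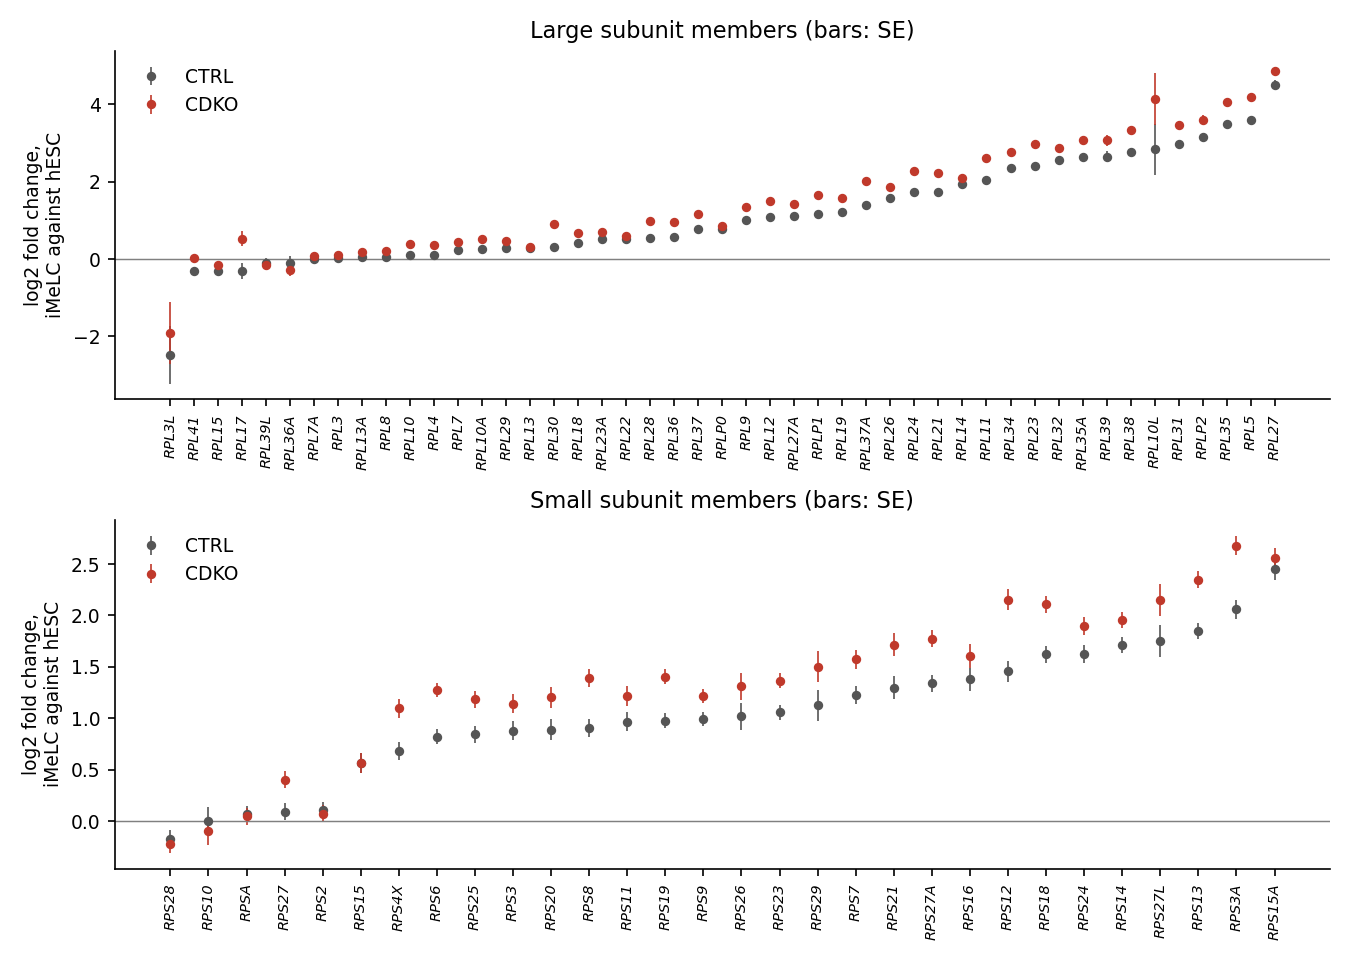
Log2 fold change of iMeLC against hESC for large (upper) and small (lower) subunit genes, sorted by the value in CTRL; points are fitted values for CTRL (grey) and CDKO (red) and bars are SEs. Large subunit genes spread from RPL3L at -2.47 to RPL27 at 4.49 in CTRL, and the small subunit genes shown from RPS28 at -0.17 to RPS15A at 2.45.

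The spread of the stage differences was wider for the large subunit. In CTRL the log2 fold changes of large subunit genes had an SD of 1.33, those of small subunit genes of 0.668, and those of all 2253 genes with a mean of at least 100 CPM of 0.793. In CDKO these SDs were 1.45, 0.810 and 0.893. A rise of over 4-fold was seen for 13 of 48 large subunit genes (27.1%) and 2 of 32 small subunit genes (6.25%) in CTRL, against 3.64% of the abundant genes. In CDKO the subunits lay closer, with 17 large (35.4%) and 7 small subunit genes (21.9%), against 5.73% of the abundant genes. The members, unlike the abundant genes, were not filtered by level. The 13 in CTRL include RPL10L, at 0.590 CPM in CTRL hESC and 4.15 CPM in CTRL iMeLC, and RPL39, at 7.86 and 49.0 CPM. RPL3L, near the floor, lay lower by over 4-fold (-2.47), and RPL3L and RPL10L also enter the SD of the large subunit. By role in CTRL, the 5S ribonucleoprotein genes had a median of 2.82, the exit tunnel 1.22, the stalk 1.12, the decoding and head genes 1.06 and the mRNA channel 0.88. The 6 other large subunit genes given a role had a median of 0.18, the 7 other small subunit genes 0.82 and the 4 paralogs 0.83. These spreads are descriptions with no test. The CTRL and CDKO comparisons each contrast their own libraries, but come from a single fit over all 12 libraries with shared scaling and spread.

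Levels were compared between genes per unit of transcript length, as TPM, in which counts are divided by the length of the longest principal transcript and scaled to a fixed sum. Over the 76 members that are not the paralogs, the median level in CTRL hESC was 548 TPM for the large and 799 TPM for the small subunit, and in CTRL iMeLC 905 and 1535 TPM. In CDKO hESC it was 410 and 635 TPM, and in CDKO iMeLC 928 and 1455 TPM. The highest level in CTRL hESC was that of RPL13A, at 5710 TPM, followed by RPL3 at 4322 TPM and RPS2 at 4169 TPM, and the lowest was RPS10, at 34.4 TPM. Exons of RPS10 overlap those of the table gene RPS10-NUDT3 on the same strand. How reads in shared exons were counted was not stated, and their part in this low level was not tested. In CTRL iMeLC RPL19 was highest at 5046 TPM, followed by RPL35 at 4664 TPM. The SD of log2 TPM over large subunit genes was 1.81 in CTRL hESC, 1.82 in CDKO hESC, 1.61 in CTRL iMeLC and 1.57 in CDKO iMeLC, and over small subunit genes 1.69, 1.65, 1.63 and 1.63. Levels differed widely between genes in each group. With the combined length of all exons of a gene in place of the principal transcript, the medians in CTRL hESC were 259 TPM for the large and 396 TPM for the small subunit, and in CTRL iMeLC 512 and 638 TPM. On that length RPL13A was highest in both CTRL groups (4157 and 3392 TPM), RPL35 was 7th in CTRL iMeLC, and RPL36A was lowest in CTRL hESC at 13.7 TPM, so the order of levels and their size depend on the length used. RPL36A likewise overlaps the table gene RPL36A-HNRNPH2 on the same strand. Transcript lengths ranged from 344 to 7686 bases, and a long principal transcript that is little used lowers a gene's TPM.

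**Figure D5:**
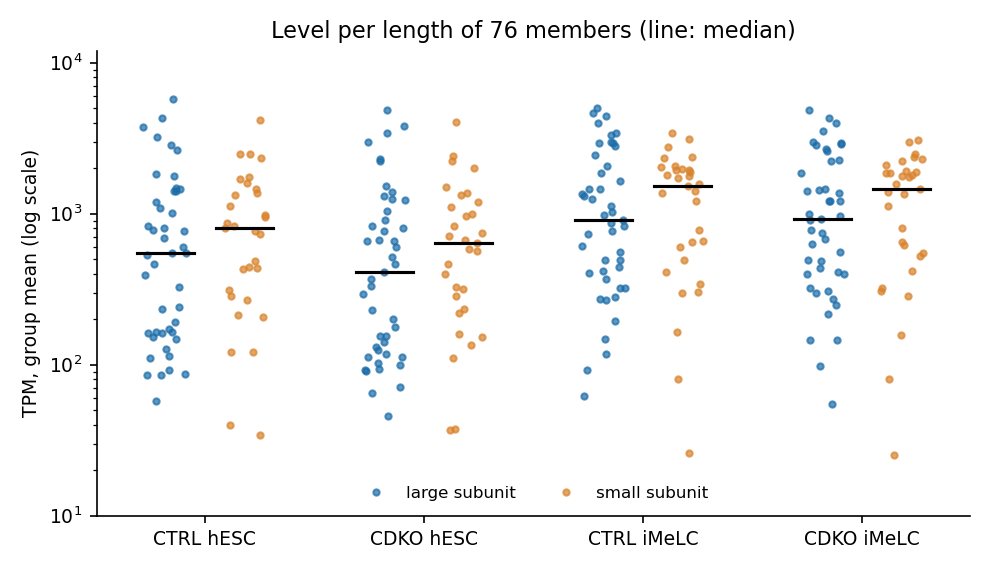
Level per length (TPM, log axis) of 76 members in each group; points are group means of 3 libraries for single genes, blue for the large and orange for the small subunit, and the line is the median. Medians are lower in hESC (548 and 799 TPM in CTRL) than in iMeLC (905 and 1535 TPM in CTRL), and genes spread over more than 10-fold in each group.

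Ribosomal protein genes give rise to many processed copies, and several host or overlap other genes, which bears on how their reads were counted. In the annotation 75 of 80 members have pseudogenes named after them, 1121 in all, none of which is a row of the tables, and how reads that match both were assigned was not stated. Small nucleolar RNA genes lie inside 28 members, 60 in all. Exons of 25 members overlap those of a table gene on the opposite strand and of 11 on the same strand, and the strand setting of the counting was not stated. Of the 15 genes that fell in CDKO hESC, RPL35 overlaps WDR38, RPLP2 overlaps PIDD1, RPL37A overlaps AC098820.1, RPS6 overlaps AL391834.2, RPS18 overlaps VPS52 and RPS27A overlaps CLHC1, each on the opposite strand. Across members the hESC fold change had a Spearman rho of 0.10 with transcript length, 0.10 with the number of named pseudogenes and -0.11 with the number of snoRNA genes (n = 80), and of -0.05 with the length of the pyrimidine run (n = 54), as descriptions over genes that share the same libraries.

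Genes that work with the ribosomal proteins were read from lists by function. In hESC, edgeR called 0 of 7 ribosomal proteins whose symbols the rule does not take, 0 of 19 TOP messenger RNAs that encode no ribosomal protein, 0 of 35 ribosome assembly factors, 0 of 19 RNA polymerase I genes and 0 of 19 genes of TOR control, where 1.31% of all genes passed. Unadjusted p was under 0.05 for 2, 7, 2, 1 and 3 of them in that order, and DESeq2 called 1, 3, 0, 1 and 1. Over all genes, 16.1% had an unadjusted p under 0.05 and DESeq2 called 626. The median log2 fold changes were -0.05, -0.12, 0.08, -0.05 and -0.05 in that order. Fold changes were positive for 2, 5, 24, 7 and 7 genes, so most assembly factors were positive, unlike FBL below. RACK1, a scaffold on the small subunit, had -0.37 ± 0.10 (edgeR adjusted p = 0.106), NPM1, a nucleolar chaperone encoded by a TOP messenger RNA, -0.34 ± 0.09 (edgeR adjusted p = 0.105), and FBL, the methyltransferase of ribosomal RNA, -0.36 ± 0.10 (edgeR adjusted p = 0.122). The elongation factor EEF1A1 had 0.06 ± 0.11 and EEF2 -0.06 ± 0.09. Among the 2177 genes with a mean of at least 100 CPM in hESC, 22 were called lower, and 13 of those 22 were ribosomal protein genes, which numbered 60 of the 2177.

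Across stages in CTRL, where 29.5% of all genes passed as higher and 19.9% as lower, 26 of 35 assembly factors were higher and 1 lower (median 0.64), 15 of 19 RNA polymerase I genes were higher (median 0.76), and 14 of 19 TOP messenger RNAs were higher and 3 lower (median 0.92). NPM1 rose by 2.50 ± 0.09 on the log2 scale and FBL by 1.39 ± 0.09, while EEF1A1 fell by 0.71 ± 0.12 and EEF2 by 0.42 ± 0.09 (edgeR adjusted p = 8.73e-10, 5.99e-08, 0.000264 and 0.00161). Of the ribosomal proteins outside the rule, RPL22L1 (2.56) and RPL26L1 (2.08) rose most, and RPL7L1 did not pass (-0.07). TOR control was more mixed, with 8 of 19 higher and 3 lower. In CDKO, where 32.1% of all genes passed as higher and 27.7% as lower, the counts were 27 higher and 1 lower of the assembly factors, 16 higher of the RNA polymerase I genes, 15 higher and 3 lower of the TOP messenger RNAs and 9 higher and 2 lower of the TOR control genes.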

How the data were processed

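Bulk RNA sequencing was measured in 12 libraries. The authors deposited raw read counts, whole numbers for each gene symbol, with the stages in separate tables. Tools named in the submitters' processing notes are FastQC, cutadapt and edgeR, with GRCh38 as the build. The aligner, counter, annotation and strand setting are not named there or in the labels. Per the labels' protocols, an RNeasy micro extraction of sorted cells or pellets went into SMARTer Stranded Total RNA libraries. No 2 replicates of a group were duplicates, and pairs across groups were not compared. The chi-square per gene between replicates was 4.41 to 20.0 in the hESC groups, 21.5 to 32.4 in CDKO iMeLC and 106 to 198 in CTRL iMeLC.

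Counts were tested with edgeR 4.0.16 (R 4.3.3, filterByExpr, TMM, quasi-likelihood test, two-sided, Benjamini-Hochberg over all genes tested, threshold 0.05). Before that, a separate copy of these edgeR steps was run on simulated counts, which did not cover DESeq2, the shares or TPM. Genotype was fitted within each stage (6 libraries), and stage and the interaction over 12 libraries with 4 group means. CPM are TMM-scaled within the fit named, and marker sums use library totals. DESeq2 1.42.0 and other scalings were alternatives. TPM used principal transcripts of GENCODE release 29. Members and lists were chosen with earlier results of these data known. Genes named are up to 5 called members per subunit and direction with the largest fold change (the 2 with the smallest adjusted p where none passed), and 15 members fixed by role; other members were named after their values were seen. A few members enter every count and summary but are not reported here by name or plotted by name.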

Additional observations from a re-analysis of the deposited data

How the results depend on the processing

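In hESC, the members called lower were 16 large and 8 small with library totals, 8 small with upper-quartile scaling, 22 large and 13 small with every gene of any count, 21 large and 11 small with DESeq2, and 3 small in the fit over 12 libraries; genes called in all were 1228 (any count), 626 (DESeq2) and 72 (12 libraries). Leaving out 1 library at a time gave 0 to 17 large and 0 to 10 small members and 5 to 493 genes. In iMeLC, genes called in all were 428 (any count), 1471 (DESeq2), 1310 (12 libraries) and 15 to 2646 with 1 library left out (2646 without CTRL1101), where 0 to 1 large member was called higher. For the interaction, genes called were 29 (any count), 188 (DESeq2) and 1 to 439 with 1 library left out; members called higher were 12 large and 8 small by DESeq2 and 0 to 9 large and 0 to 5 small with 1 library left out.

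Between stages in CTRL, the medians for large and small members were 0.68 and 0.92 with DESeq2 size factors, 0.48 and 0.71 with library totals and 0.40 and 0.64 with upper quartile; members called lower were 10 large and 4 small (totals), 12 and 6 (upper quartile), and 2 small with DESeq2 or its size factors. In CDKO, the medians were 0.67 and 0.99 (totals) and 0.59 and 0.91 (upper quartile); members called lower were 8 large and 5 small (totals), 9 and 5 (upper quartile), 1 large (DESeq2, its size factors, or 6 libraries only) and 0 small (any count). With 1 library left out, medians were 0.91 to 1.06 for small members in CTRL, and 0.96 to 1.11 for large and 1.26 to 1.43 for small members in CDKO, and members called lower were 2 to 4 large and 0 to 2 small in CTRL and 0 to 2 of either subunit in CDKO. The median of all genes moved to -0.31 in CTRL and -0.46 in CDKO with totals and to -0.39 and -0.55 with upper quartile. Single genes turned sign: in CTRL RPL10 was -0.20 (totals) and -0.27 (upper quartile), RPS27 -0.28 and RPL30 -0.066 (upper quartile); in CDKO RPL41 was -0.36 (totals) and -0.45 (upper quartile), RPL10 -0.073 and RPS27 -0.068 (upper quartile). The cause was not tested.

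With mitochondrially encoded genes left out of the totals, the mean shares were 2.24% and 1.91% for large members in CTRL and CDKO hESC, 2.99% in CDKO iMeLC, and 1.73% and 1.69% for small members in CTRL and CDKO iMeLC. No paired analysis was possible because the hESC columns carry no line number; fits with line as a block and shares with pseudogene rows, of which the tables hold none, were not run. Depth was lower in hESC, which limits the paralogs near 1 CPM.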
